A study of Mus musculus with 4 samples.

Results

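A set of 10 immediate early genes was followed in embryonic mouse hearts, namely Egr1, Egr2 and Egr3, Nr4a1, Nr4a2 and Nr4a3, Ier2 and Ier3, Dusp1 and Myc. They were taken by symbol from the deposited expression table, and 10 of 10 were found among its 14936 genes. The mutant hearts came from mutant embryos 51 and 54, homozygous for a floxed Adar1 allele (flox/flox) and carrying 1 Nkx2.5-Cre allele (Cre/WT). The control hearts came from control embryos 47 and 50, with the same flox/flox genotype and no Cre allele (WT/WT). All were at E18.5 on a C57BL/6 background, so the controls carried the floxed alleles too, and only the mutants carried Cre: effects of the Cre allele and of its action on Adar1 cannot be told apart. Adar1, listed as Adar, encodes an enzyme that edits adenosine to inosine in RNA. Cre recombinase cuts out DNA between loxP sites, and Nkx2.5-Cre acts in cells that express or descend from cells expressing a cardiac transcription factor, so heart cells outside that lineage can keep the gene. The genotype entry of the mutants names wildtype and KO together, and the groups rest on the titles, which the column headers match.

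Immediate early genes are transcribed within minutes of a stimulus, without new protein synthesis, from factors already in the cell. Serum response factor, which binds the CArG box, and CREB, which binds the cyclic AMP response element (CRE), are common activators, reached through MAP kinase and calcium or cyclic AMP signalling. The proteins these genes encode then switch on later genes or, as with the dual-specificity phosphatases, end the signal, and in heart muscle they are known to respond to stretch, catecholamines and handling of the tissue.

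Of the 10 genes 7 rose in the mutants, 0 fell and 3 did not pass the test. Egr1 stood out, at 459 and 604 CPM in mutant hearts 51 and 54, against 17.6 and 20.2 CPM in control hearts 47 and 50. Myc, Nr4a3, Egr2, Ier2, Nr4a1 and Egr3 also rose, and Nr4a2, Ier3 and Dusp1 did not pass. CPM is the authors' read count of a gene, scaled to the effective size of its library. The test was limma-trend on log2(CPM + 1) across 14869 genes, with a Benjamini-Hochberg adjusted p under 0.05, and fold changes are mutant minus control on that scale. All 10 genes passed the filter of at least 1 CPM in 2 or more libraries. Of all genes tested 31.9% passed, 17.8% rising and 14.2% falling, so a rise was common in these hearts. The 7 of 10 is set beside that share as a description, since the 10 genes were chosen with earlier results of these data known. Both mutants lay above both controls for 8 of the 10, which is true of 36.0% of the genes tested, and both lay below both controls for 0 of the 10, against 36.3%. The median log2 fold change of the 10 was 1.78, and that of all genes tested was -0.01.

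**Figure D1:**
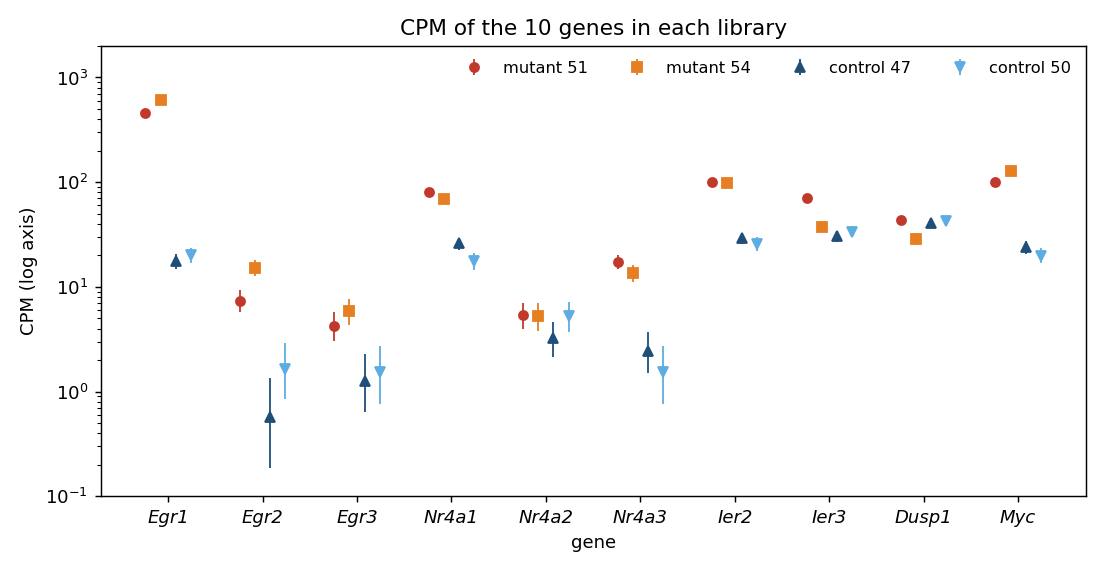
CPM of each gene (log axis) in mutant libraries 51 and 54 and control libraries 47 and 50; each point is 1 library and each bar its exact 95% Poisson counting interval. Mutants sit above controls for 8 genes, while the groups overlap for Nr4a2 and Dusp1.

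The hearts were measured as poly(A) RNA of whole tissue, so fewer cells of a type and less RNA per cell cannot be told apart. Between 7457103 and 8998872 reads fell on the listed genes in each library, and 1 read was worth between 0.109 and 0.138 CPM. Each library is a separate embryo, with 2 per group. Adar itself had 195 and 213 CPM in mutant hearts 51 and 54, against 30.2 and 35.7 CPM in control hearts 47 and 50 (log2 fold change 2.60, SE 0.13, limma adjusted p = 2.41e-05). The libraries labelled mutant thus had more Adar reads. Gene-level reads do not show whether the floxed exons were lost, so every direction given here is that of libraries by their labels. Of 10 cardiomyocyte markers 0 rose and 3 fell (0 without control replicate 47 or 50, 1 without mutant replicate 51 and 7 without mutant replicate 54), with a summed 22142 and 34061 CPM in the mutants against 53124 and 42551 CPM in the controls. All 10 were detected in every library. Among all genes tested 17.8% rose and 14.2% fell, and leaving out either control cut those calls as well. Mitochondrial transcripts made up 2.08% and 4.31% of reads in mutant hearts 51 and 54, against 6.14% and 6.93% in control hearts 47 and 50.

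Sequences just before the transcription start are given for 5 genes, 3 that rose and 2 that did not pass, because their known CArG and CRE letters can then be set beside the values. They are RefSeq sequences on GRCm38.p6, each read 5′ to 3′ in the direction of its gene. Where a GENCODE M21 exon begins before the RefSeq start, the stretch ends at that exon. Capitals mark the CArG box and TGACG, a CRE half-site, in either direction.
Egr2 (chr10:67537619-67537868, plus strand): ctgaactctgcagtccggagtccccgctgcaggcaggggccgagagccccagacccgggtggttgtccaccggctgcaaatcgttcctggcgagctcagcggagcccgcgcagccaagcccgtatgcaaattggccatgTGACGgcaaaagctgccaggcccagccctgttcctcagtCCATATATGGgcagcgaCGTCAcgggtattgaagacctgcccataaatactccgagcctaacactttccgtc
Nr4a1 (chr15:101266596-101266845, plus strand): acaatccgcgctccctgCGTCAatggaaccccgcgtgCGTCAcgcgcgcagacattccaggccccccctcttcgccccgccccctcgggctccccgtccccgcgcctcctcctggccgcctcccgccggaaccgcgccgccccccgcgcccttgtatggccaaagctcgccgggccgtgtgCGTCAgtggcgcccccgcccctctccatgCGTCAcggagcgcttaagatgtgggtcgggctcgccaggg
Nr4a3 (chr4:48045055-48045152, plus strand): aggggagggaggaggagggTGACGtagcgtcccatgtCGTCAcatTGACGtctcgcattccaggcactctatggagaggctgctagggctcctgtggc
Nr4a2 (chr2:57124004-57124253, minus strand): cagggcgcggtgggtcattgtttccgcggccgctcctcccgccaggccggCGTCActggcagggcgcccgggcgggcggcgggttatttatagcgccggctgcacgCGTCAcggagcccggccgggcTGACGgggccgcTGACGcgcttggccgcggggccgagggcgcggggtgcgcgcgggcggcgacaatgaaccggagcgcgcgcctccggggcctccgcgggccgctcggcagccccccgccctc
Dusp1 (chr17:26508520-26508722, minus strand): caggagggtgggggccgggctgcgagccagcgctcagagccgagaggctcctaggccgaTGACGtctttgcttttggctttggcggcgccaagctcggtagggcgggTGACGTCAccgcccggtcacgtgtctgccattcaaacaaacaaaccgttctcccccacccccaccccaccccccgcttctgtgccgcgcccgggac

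RefSeq windows were found for 6 of the 10 genes, the 5 above and Ier3, and not for Egr1, Egr3, Ier2 and Myc. The Ier3 window held no CArG or CRE match and is not printed. Where a gene had several windows, the start of a transcript that GENCODE M21 marks as principal was used. The stretches of Egr2, Nr4a1 and Dusp1 lie within the annotated spans of those genes, and starts farther upstream were not searched. The CArG box was searched as CCWWWWWWGG, where W is A or T. In the 250 bases before the RefSeq start, only Egr2 of these 6 held a full match to it, which lay 72 to 63 bases before the start. A CArG box was in 1.47% of the 32851 promoter windows searched. The half-site TGACG was in 5 of the 6 and in 17.8% of all windows, with 4 matches each in Nr4a1, Nr4a2 and Nr4a3, 3 in Dusp1 and 2 in Egr2. The full CRE, TGACGTCA, was only in Dusp1 of the 6, 143 to 136 bases before the start, and in 1.55% of all windows. It contains 2 of the 3 half-site matches of Dusp1. An EGR site, GCGNGGGCG, was in Nr4a1 and Nr4a2 and in 4.7% of windows, and an NF-kappaB motif was in Ier3 and in 7.25% of windows. TGATGNAA, written after elements bound by ATF4 with C/EBP factors, was in 0 of the 6 and in 3.45% of windows. Each motif was searched on both strands, and only full matches to its letters were counted, so near matches were left out. Nr4a1 and Nr4a3 rose and Nr4a2 did not pass, with the same number of half-sites in each window. The stretch printed for Nr4a3 holds 3 of its 4, and the other lies past it, in annotated exon.

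**Figure D2:**
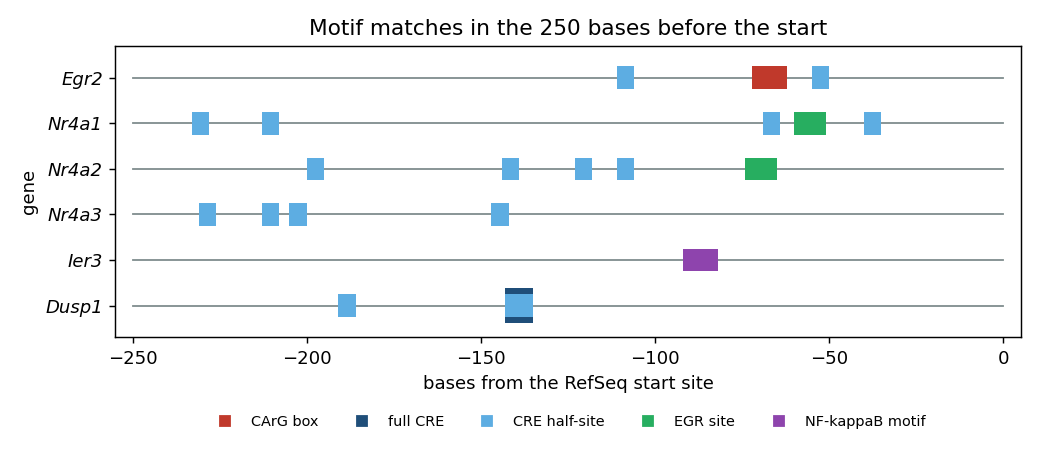
Motif matches in the 250 bases before the RefSeq start (x axis, bases from the start) of the 6 genes with a window, drawn to scale; the taller dark bar is the full CRE, with its half-sites drawn over it. Only Egr2 shows a CArG box, and Nr4a1, Nr4a2 and Nr4a3 have 4 half-sites each.

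The Egr genes encode zinc-finger transcription factors that bind GC-rich sites. Egr1 (ENSMUSG00000038418, chromosome 18, 34859823 to 34864984) averaged 532 ± 103 CPM in the mutants and 18.9 ± 1.84 CPM in the controls (SD, n = 2 each), 28.1 times as much. Its log2 fold change came to 4.73 (SE 0.16, limma adjusted p = 3.52e-06), number 69 from the top among the 14869 genes tested. The mutants did not overlap the controls, and the call held with each library left out in turn, with log2 fold changes from 4.53 to 4.93.

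Egr2 (ENSMUSG00000037868, chromosome 10, 67535475 to 67542188), whose upstream stretch with the CArG box is printed above, is known for its part in myelinating glia and in lymphocytes. It had 7.40 and 15.2 CPM in mutant hearts 51 and 54, against 0.575 and 1.66 CPM in control hearts 47 and 50. Those rest on 68 and 128 reads in the mutants against 5 and 12 in the controls, so counting error is wide: the exact 95% Poisson interval in control 47 ran from 0.187 to 1.34 CPM. Both mutants were above both controls, with mutant 54 at 2.05 times the CPM of mutant 51 and control 50 at 2.89 times that of control 47. The log2 fold change came to 2.51 (SE 0.40, limma adjusted p = 0.00509). The call was lost without control replicate 47 (log2 fold change 2.13, limma adjusted p = 0.0891) and without control replicate 50 (2.89, limma adjusted p = 0.0532). With a pseudocount of 0.1 in place of 1 the log2 fold change came to 3.30, and with 5 it was 1.38, both past the threshold.

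Egr3 (ENSMUSG00000033730, chromosome 14, 70077203 to 70082614), known from muscle spindles and lymphocytes, had 4.24 and 5.82 CPM in mutant hearts 51 and 54, against 1.26 and 1.52 CPM in control hearts 47 and 50. The groups did not overlap, on 39 and 49 reads in the mutants against 11 and 11 in the controls. Its log2 fold change of 1.32 (SE 0.28, limma adjusted p = 0.0136) was the smallest among the 7 genes that rose. Without control replicate 47 it was 1.25 (limma adjusted p = 0.127), and without control replicate 50 it was 1.40 (limma adjusted p = 0.102), neither past the threshold. It was 1.77 with a pseudocount of 0.1 and 0.65 with 5. All 3 Egr genes were higher in mutant 54 than in mutant 51, though the Poisson intervals of Egr3 in the mutants overlapped.

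The Nr4a genes encode orphan nuclear receptors that act without a known classical ligand and whose activity is set largely by their amount. Nr4a1 (ENSMUSG00000023034, chromosome 15, 101254269 to 101274795) had 80.1 and 68.4 CPM in mutant hearts 51 and 54, against 26.0 and 17.6 CPM in control hearts 47 and 50. Its log2 fold change came to 1.74 (SE 0.20, limma adjusted p = 0.00128). The lower mutant was well above the higher control, though the controls differed from each other by a factor of 1.48.

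Nr4a3 (ENSMUSG00000028341, chromosome 4, 48045153 to 48086447) was much lower in level, with 17.3 and 13.4 CPM in mutant hearts 51 and 54, against 2.41 and 1.52 CPM in control hearts 47 and 50. Those rest on 159 and 113 reads in the mutants against 21 and 11 in the controls. The log2 fold change came to 2.47 (SE 0.26, limma adjusted p = 0.000965), and 2.93 with a pseudocount of 0.1 or 1.54 with 5. With a pseudocount of 5 that of Nr4a1 was 1.58, so which of these genes rose further depended on the pseudocount. The mean in the mutants was 7.81 times that in the controls. Both Nr4a1 and Nr4a3 stayed past the threshold with each library left out in turn, with log2 fold changes from 1.48 to 2.01 for Nr4a1 and from 2.25 to 2.69 for Nr4a3.

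Nr4a2 (ENSMUSG00000026826, chromosome 2, 57106830 to 57124003), best known from dopamine neurons, did not pass. It had 5.33 and 5.22 CPM in mutant hearts 51 and 54, against 3.22 and 5.26 CPM in control hearts 47 and 50, so control 50 lay between the mutants. The log2 fold change came to 0.29 (SE 0.27, limma adjusted p = 0.442), with a 95% interval, not adjusted for multiple tests, from -0.36 to 0.94. That interval lies below those of Nr4a1 (1.28 to 2.21) and Nr4a3 (1.85 to 3.09), though the difference between the genes was not itself tested. Rxra and Rxrb, which encode retinoid X receptors that pair with Nr4a1 and Nr4a2, had log2 fold changes of -0.07 (SE 0.11) and 0.01 (SE 0.12), neither past the threshold.

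**Figure D3:**
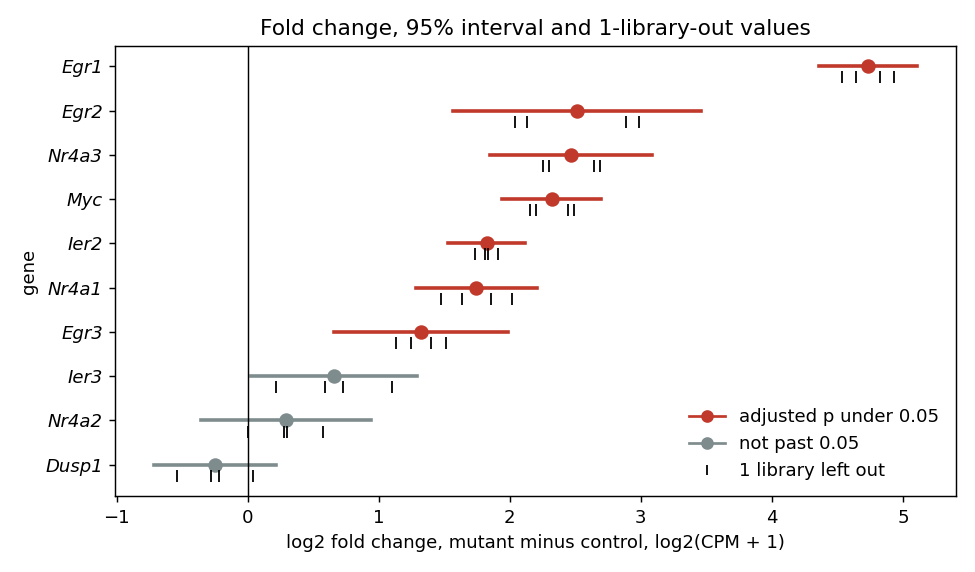
Log2 fold change of each gene (mutant minus control, log2(CPM + 1) scale) with its 95% interval from limma; black ticks give the value with each of the 4 libraries left out. Egr1 lies at 4.73, 6 genes lie between 1.32 and 2.51, and the intervals of Nr4a2 and Dusp1 cross 0.

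Ier2 and Ier3 are small genes with unrelated products: Ier2 encodes a nuclear regulator of transcription, and Ier3 a stress-induced protein known to affect cell survival. Ier2 (ENSMUSG00000053560, chromosome 8, 84661331 to 84662852) had nearly the same value in both mutants, 100.1 and 98.5 CPM in mutant hearts 51 and 54, against 29.1 and 25.7 CPM in control hearts 47 and 50. Its log2 fold change of 1.82 (SE 0.12, limma adjusted p = 0.000114) had the smallest SE of the 10 and stayed between 1.74 and 1.91 with each library left out, past the threshold each time.

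Ier3 (ENSMUSG00000003541, chromosome 17, 35821684 to 35822923) differed between the mutants, with 70.0 and 37.4 CPM in mutant hearts 51 and 54, against 30.5 and 33.7 CPM in control hearts 47 and 50. Both mutants were above both controls, mutant 54 by little. The log2 fold change came to 0.66 (SE 0.27, limma adjusted p = 0.0985). The value moved with the mutant left out: it was 1.10 without mutant replicate 54 (limma adjusted p = 0.00183) and 0.22 without mutant replicate 51 (limma adjusted p = 0.374). DESeq2 on recovered reads gave 0.74, past the threshold at an adjusted p of 0.0451.

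Dusp1 (ENSMUSG00000024190, chromosome 17, 26505590 to 26562128) encodes a phosphatase that inactivates MAP kinases, p38 and JNK above all. It had 43.1 and 28.5 CPM in mutant hearts 51 and 54, against 41.0 and 42.9 CPM in control hearts 47 and 50, so mutant 51 was level with the controls and mutant 54 below them. The log2 fold change came to -0.25 (SE 0.20, limma adjusted p = 0.352), with a 95% interval from -0.72 to 0.21. It turned to 0.04 without mutant replicate 54 (limma adjusted p = 0.841), and without mutant replicate 51 it was -0.54 and past the threshold (limma adjusted p = 0.0340). Dusp1 was the one gene of the 10 whose mean was lower in the mutants. Its annotated span overlaps 4 genes, of which Ergic1, on the other strand, shares 11 exon bases with it and the other 3 share 0, and no other of the 10 genes overlaps another annotated gene.

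Myc (ENSMUSG00000022346, chromosome 15, 61985391 to 61990374) encodes a transcription factor of cell growth, known to be transcribed at once after growth signals. It had 100.2 and 127 CPM in mutant hearts 51 and 54, against 23.8 and 19.9 CPM in control hearts 47 and 50. The groups did not overlap, and the mean in the mutants was 5.19 times that in the controls. The log2 fold change came to 2.32 (SE 0.16, limma adjusted p = 0.00012) and stayed between 2.15 and 2.49, past the threshold, with each library left out.

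Of the 7 genes that rose, 5, Egr1, Nr4a1, Nr4a3, Ier2 and Myc, stayed past the threshold with each library left out in turn. Without control replicate 47 or 50, 5 of the 10 were past the threshold, beside 3.84% and 4.5% of all genes tested. In the authors' deposited table an FDR under 0.05 was given to 7 of the 10, the same 7 genes, beside 30.9% of all genes in that table, and Ier3 had an FDR of 0.0840. The 95% Poisson intervals of the mutants did not overlap for Egr1, Egr2, Nr4a1, Ier3, Dusp1 and Myc, and those of the controls only for Nr4a1. How common this was among all genes was not counted, so it is not read as particular to these genes. Over the whole table chi-square over degrees of freedom was 24.6 between the mutants and 8.36 between the controls. More reads also give narrower intervals, so the groups are not compared in this. Egr1 had 4216 and 5092 reads in mutants 51 and 54, against 153 and 146 in controls 47 and 50. In level, 6 were higher in mutant 51 (the Nr4a genes, Ier2, Ier3 and Dusp1) and 4 in mutant 54 (the Egr genes and Myc). The intervals of Egr3, Nr4a2, Nr4a3 and Ier2 overlapped between the mutants. Nr4a2 and Ier2 were near level, each at 1.02 times the CPM of mutant 54 in mutant 51.

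**Figure D4:**
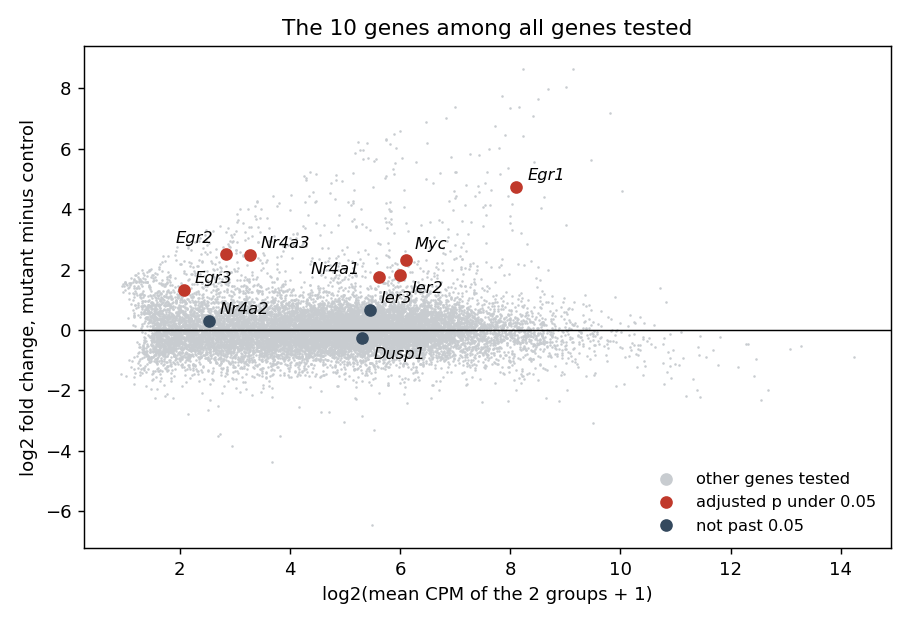
Log2 fold change (mutant minus control) of every gene tested against log2 of the mean CPM of both groups plus 1; grey points are other genes. Egr1 lies at 4.73, the other 6 genes that rose lie between 1.32 and 2.51, and Nr4a2, Ier3 and Dusp1 lie within the dense band of genes.

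Levels were set side by side as CPM per kb of annotated exon sequence, so that genes of different length can be compared. In the mutants the order from high to low was Egr1 (119 CPM per kb), Ier2 (65.3), Ier3 (47.5), Myc (41.7), Nr4a1 (21.2), Dusp1 (10.8), Egr2 (3.32), Nr4a3 (2.57), Nr4a2 (1.30) and Egr3 (1.14). In the controls it was Ier3 (28.4 CPM per kb), Ier2 (18.0), Dusp1 (12.7), Myc (8.04), Nr4a1 (6.20), Egr1 (4.21), Nr4a2 (1.04), Egr2 and Nr4a3 (0.329 each) and Egr3 (0.316). Egr1 was thus first of the 10 in level in the mutants and number 6 in the controls. Neighbours whose values overlapped between libraries were Ier3 and Myc, Egr2 and Nr4a3, and Nr4a2 and Egr3 in the mutants, and Myc and Nr4a1, and Egr2, Nr4a3 and Egr3 in the controls. Exon length counts every annotated transcript, so genes with long rare isoforms read low on this scale.

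The 10 genes together took 8147 and 8453 reads in mutant hearts 51 and 54, against 1526 and 1229 in control hearts 47 and 50. That is 0.0948% and 0.1001% of listed reads in the mutants against 0.0170% and 0.0165% in the controls. Egr1 alone held 4216 and 5092 of those reads in mutant hearts 51 and 54, against 153 and 146 in control hearts 47 and 50.

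Genes with the most similar course over the 4 libraries were found by Euclidean distance between centred log2(CPM + 1) values. Nearest to Egr1 was Gbp7, at a distance of 0.222, with 312 and 349 CPM in mutant hearts 51 and 54, against 11.1 and 11.1 CPM in control hearts 47 and 50. Nearest to Nr4a1 was Cox18 (0.0645), to Ier2 Yars (0.0432) and to Myc Slc25a22 (0.140). With 4 libraries in 2 groups these distances are a description.

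Other immediate early genes were read from the same fit. For this list and those below, the shares over all genes tested were 17.8% rising and 14.2% falling. Leaving out either control cut the calls over all genes as well. Of 10 AP-1 and ATF factors 9 rose and 0 fell, with a median log2 fold change of 1.34. The smallest adjusted p among them were those of Atf3, a stress-induced repressor, which rose by 4.78 (SE 0.16), Mafk, a small Maf protein, by 2.13 (SE 0.13), and Maff by 1.10 (SE 0.14). Fosl1 did not pass, at 1.63 and 2.14 CPM in mutant hearts 51 and 54, against 1.95 and 2.90 CPM in control hearts 47 and 50. Without control replicate 47 and without control replicate 50, 2 and 3 of these 10 rose.

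Of 32 further immediate early genes 23 rose, 1 fell and 8 did not pass, with a median of 1.10. Ifrd1, a regulator of differentiation, rose by 2.53 (SE 0.12), Nfil3, a bZIP repressor, by 2.30 (SE 0.12) and Csrnp1, a nuclear protein, by 2.64 (SE 0.16). Sgk1, a kinase induced by serum and glucocorticoid, was the one that fell, by 0.84 (SE 0.17, limma adjusted p = 0.0106). Ier5, a relative of Ier2, had 87.9 and 64.9 CPM in mutant hearts 51 and 54, against 44.1 and 40.7 CPM in control hearts 47 and 50, a log2 fold change of 0.82 (SE 0.16, limma adjusted p = 0.0111). Its paralog Ier5l did not pass, at 21.3 and 14.7 CPM in mutant hearts 51 and 54, against 14.4 and 17.8 CPM in control hearts 47 and 50. Both were named for their relation to Ier2, after their values were seen. Without control replicate 47 and without control replicate 50, 9 and 10 of the 32 rose and 0 fell.

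**Figure D5:**
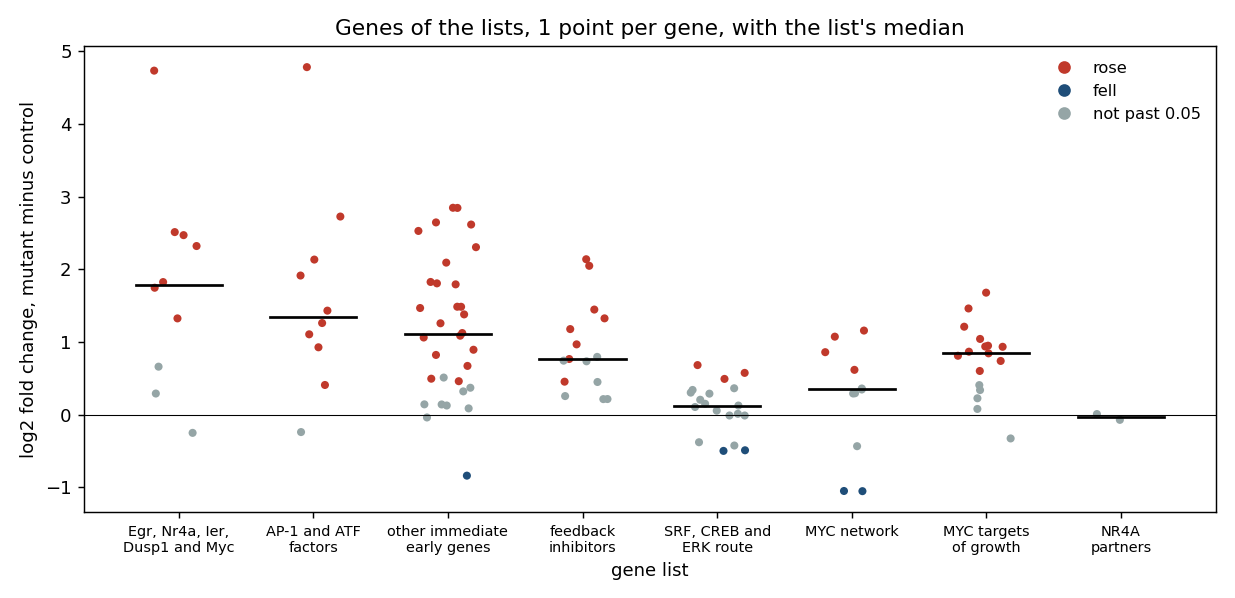
Log2 fold change (mutant minus control) of each gene of the lists, 1 point per gene, with red for genes that rose, blue for genes that fell and grey for those not past the threshold; the black bar is each list's median. The medians of the immediate early lists lie between 1.10 and 1.78, and that of the SRF, CREB and ERK route at 0.12.

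Feedback inhibitors of EGR factors and of the MAP kinases numbered 15, of which 8 rose, 0 fell and 7 did not pass, with a median of 0.76. Nab2, which binds EGR factors and represses them, rose by 1.44 (SE 0.13, limma adjusted p = 0.000413), with 90.3 and 87.5 CPM in mutant hearts 51 and 54, against 29.7 and 34.6 CPM in control hearts 47 and 50. Its paralog Nab1 had a log2 fold change of 0.21 (SE 0.12, limma adjusted p = 0.190). Dusp6, which inactivates ERK, rose by 1.18 (SE 0.11), and Dusp16, which acts on JNK, by 1.32 (SE 0.14). Dusp4 and Dusp8 rose too, while Dusp2, Dusp5, Dusp10 and Dusp14 of this list did not pass, nor did Dusp1. Without control replicate 47, and likewise without control replicate 50, 3 of the 15 rose.

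Of 19 genes of the SRF, CREB and ERK route upstream, 3 rose, 2 fell and 14 did not pass, with a median of 0.12. These shares lie near those of all genes tested. Map2k1, which encodes an ERK kinase, rose by 0.68 (SE 0.13), and Crtc2 and Crtc3, coactivators of CREB, by 0.57 (SE 0.14) and 0.49 (SE 0.15). Its paralog Map2k2 did not pass, with a log2 fold change of -0.43 (SE 0.16). Mapk3, which encodes an ERK, fell by 0.50 (SE 0.11) and Elk3, an SRF partner, fell by 0.49 (SE 0.11). Srf had 146 and 257 CPM in mutant hearts 51 and 54, against 182 and 167 CPM in control hearts 47 and 50, so its groups overlapped. None of the 5 calls in this list was past the threshold without control replicate 47 or without control replicate 50, when 0 rose and 0 fell. Without mutant replicate 54, 4 of the 19 fell.

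MYC acts as a pair with MAX and is opposed by MXD proteins. Of 11 partners tested 4 rose and 2 fell, with a median of 0.34, beside 17.8% rising and 14.2% falling among all genes tested. Mga, a MAX-binding repressor, rose by 1.07 (SE 0.12), Max by 0.62 (SE 0.12), Mxd1 by 1.16 (SE 0.29) and Mycn by 0.86 (SE 0.23). Mxd4 fell by 1.05 (SE 0.12) and Mxd3 fell by 1.05 (SE 0.14). Without control replicate 47 and without control replicate 50, 0 and 1 of them rose and 1 fell each time. Of 17 growth genes known as MYC targets 12 rose, 0 fell and 5 did not pass, with a median of 0.84. Nop58, a small nucleolar ribonucleoprotein, rose by 1.46 (SE 0.11), Gnl3, a nucleolar GTPase, by 1.68 (SE 0.13) and Srm, spermidine synthase, by 1.21 (SE 0.13). With control replicate 47 left out, and likewise with control replicate 50, 3 of the 17 rose.

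Markers of other cells were read beside these results, and their part in them was not tested. Of all genes tested 17.8% rose and 14.2% fell, and leaving out either control cut the calls over all genes as well. Of 8 macrophage markers 5 rose and 1 (Mrc1) fell, with summed levels of 189 and 144 CPM in mutant hearts 51 and 54, against 128 and 108 CPM in control hearts 47 and 50, and 0 of the 8 at 0 in any library. The 5 rises became 0, and the fall 0, without control replicate 47 or 50, and 2 markers rose without mutant replicate 51 or with upper-quartile scaling. Ptprc, a marker of all leukocytes, had 20.02 and 9.85 CPM in mutant hearts 51 and 54, against 3.56 and 2.49 CPM in control hearts 47 and 50, and it was the one lymphocyte marker tested of 6 listed. Of 6 endothelial markers 0 passed, with 907 and 947 CPM in the mutants against 921 and 1156 CPM in the controls. Of 7 fibroblast markers 0 rose and 3 fell, with 3424 and 3940 CPM in the mutants against 6035 and 5209 CPM in the controls, and the count of falls became 0 with control 47 left out, 1 with control 50 and 6 with mutant 54. Of 4 smooth muscle markers 0 rose and 2 fell, with 328 and 498 CPM in the mutants against 1139 and 900 CPM in the controls. No smooth muscle marker passed without control replicate 47 or 50, and 3 fell and 1 rose without mutant replicate 54. Of 6 neutrophil markers 2 were tested and 0 passed, with 5.77 and 2.85 CPM in the mutants against 2.64 and 5.81 CPM in the controls.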

How the data were processed

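Poly(A) RNA of 4 hearts was sequenced as directional libraries with paired reads of 150 bp, per the labels' protocols. The submitters' processing notes list the build GRCm38 and the tools STAR, DESeq, edgeR 3.10 and fastp 0.20.0. How reads were counted, with which strand setting and gene models, is not given in the sources used here. Each value column of the authors' deposited table is a read signal scaled to effective library sizes, named CPM per the file headers. The authors' own log2 mean CPM, score (F and logFC), FDR and p-value columns are named as such per the file headers. The deposited logFC was about 0.500 times the log2 ratio of the group means (median over 946 genes), so fold changes were computed from CPM.

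Symbols came from GENCODE M21 for 14916 of 14936 identifiers, which also restored 20 symbols stored as dates. The members and gene lists were chosen with earlier results of these data known. Names were chosen by a fixed rule: all 10 members, the 3 smallest adjusted p per list and direction, genes needed for small counts, and the gene nearest to Egr1, Nr4a1, Ier2 and Myc. Others, such as Ier5, Ier5l, Nab1, Srf, Ptprc, Fos, Junb, Ccn2 and Dusp8, were named after their values were seen.

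The design allowed for counts or normalized values. Since the values are normalized, log2(CPM + 1) was tested with limma-trend (limma 3.58.1, R 4.3.3), two-sided, genotype as the only term, and checked on simulated data. With 2 libraries a group, the smallest two-sided p of an exact permutation test is 0.333. Whole reads were recovered from the CPM steps (100% of values whole within 0.001) and tested with edgeR 4.0.16 and DESeq2 1.42.0 as alternatives. No replicate pair looked like a duplicate of 1 library, since chi-square over degrees of freedom was 24.6 for the mutants and 8.36 for the controls. Poisson intervals at 95% cover counting error only, and the 95% intervals of log2 fold changes come from the limma fit.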

Additional observations from a re-analysis of the deposited data

How the results depend on the processing

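Under the pseudocounts, filters, scalings and models tried, with all 4 libraries, every one of the 10 genes kept its direction and its side of the threshold, except Ier3, which DESeq2 on recovered reads put past it (log2 fold change 0.74), and Egr3, which the filter at 5 CPM removed. Leaving out single libraries, the 10 genes gave 5 to 8 calls and all genes tested 571 to 5655. Egr2 ran from 2.04 to 2.98 and Egr3 from 1.13 to 1.51, both losing the call without either control. Ier3 ran from 0.22 to 1.10, and Dusp1 from -0.54 to 0.038, with the sign turned without mutant replicate 54. A group of 1 library is then assumed to vary like the other group, and the cause of these changes was not tested beyond the fewer libraries. The fitted changes of genes with few reads depend on the pseudocount. All genes split into 2643 rises and 2107 falls, and into 2253 and 2963 with upper-quartile scaling or 2188 and 2738 with quantile normalization, while 7 of the 10 genes rose under each. No paired analysis was possible because the embryo numbers of the groups have none in common.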

Other observations

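Among immediate early genes, more were over 1.5 times as high in mutant 51 as in mutant 54 than the other way round. This pattern was picked out after the values were seen, with 1 library on each side and no test. Among the AP-1 and ATF factors, 4 of 10 were more than 1.5 times as high in mutant 51 as in mutant 54 and 0 of 10 the other way. They were Fos (69.3 and 19.9 CPM in mutant hearts 51 and 54, against 5.06 and 4.56 CPM in control hearts 47 and 50), Junb (111 and 43.4 CPM, against 16.2 and 19.4 CPM), Fosl2 and Fosb. Of the 32 further immediate early genes 7 were so placed in mutant 51, Cebpb and Klf10 among them. In mutant 54 there were 2, Ccn2 and Npas4. Npas4 was low, at 0.435 and 2.49 CPM in mutant hearts 51 and 54, against 1.49 and 0.691 CPM in control hearts 47 and 50. Over all genes tested 7.89% were so placed in mutant 51 and 8.48% in mutant 54. Among the 10 genes of the report Ier3 and Dusp1 went with mutant 51 and Egr2 with mutant 54, while between the controls 3 of the 10, Egr2, Nr4a2 and Nr4a3, were as far apart. Between the controls 0 of the 10 AP-1 and ATF factors, 2 of the 32 further genes and 1329 of all 14869 genes tested were more than 1.5 times apart in either direction.

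Ccn2, which encodes a matricellular protein, had 416 and 691 CPM in mutant hearts 51 and 54, against 76.8 and 70.8 CPM in control hearts 47 and 50 (log2 fold change 2.85, SE 0.23, past the limma threshold). Dusp8, a phosphatase of JNK and p38, had 54.4 and 136 CPM in mutant hearts 51 and 54, against 19.0 and 18.7 CPM in control hearts 47 and 50 (log2 fold change 2.14, SE 0.37, past the limma threshold). It was the 1 of the 15 feedback inhibitors more than 1.5 times as high in mutant 54 as in mutant 51. In the other direction there were 3, Dusp2, Dusp4 and Dusp5, and between the controls 1 of the 15 was as far apart.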
